A study of Mus musculus with 8 samples.

Results

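The data were examined for 10 genes that mark alveolar type 1 (AT1) cells: Ager, Hopx, Pdpn, Rtkn2, Akap5, Clic5, Emp2, Gprc5a, Spock2 and Vegfa. They were taken as known AT1 markers, and earlier results of these data were known when they were chosen. All 10 were found by symbol among the 55385 gene IDs of the count tables. All were among the 22545 genes with enough reads to test. Whole lungs of C57BL/6 mouse fetuses were collected at E18.5 and studied by mRNA-seq. In the 4 tracheal occlusion (TO) lungs, a suture placed through the uterine wall at E16.5 had closed the trachea together with one carotid artery and one jugular vein, and the pregnant mice of this model were given progesterone afterwards. The 4 control lungs had the same strain and age, and what their fetuses underwent is not given in the sources used here. All cells of the lung are in 1 measurement, so fewer AT1 cells and less RNA per AT1 cell cannot be told apart.

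AT1 cells are the flat cells that cover most of the gas exchange surface of the lung, and AT2 cells are the cuboidal cells beside them that make surfactant. Both arise late in gestation from progenitors at the tips of the branching epithelium, and AT1 cells flatten as fluid and fetal breathing stretch the air spaces. Occlusion of the trachea keeps the secreted fluid in the lung and raises this stretch.

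Of the libraries, TO 1 stood apart. It had 270078 read pairs counted on genes, against 22822261 to 35002061 in the other 7, so that 1 read in TO 1 was worth 3.44 CPM after TMM scaling, CPM being the count of a gene scaled to the library total. TO 1 also held 458 CPM of thymocyte and T cell marker RNA in sum and 2544 CPM of skeletal muscle marker RNA, whereas the other libraries had at most 19.2 and 176 CPM. Cardiomyocyte markers were low in controls 1 and 2, with a mean log2 CPM of 4.44 and 4.38, and ranged from 6.32 to 8.67 in the other 6 libraries. Each value below is CPM after TMM scaling unless another scale is named, and it is given in the order control 1 to 4 and TO 1 to 4. The study's own mouse figure shows 6 of these lungs, controls 1, 2 and 4 and TO 2, 3 and 4, and the fitted changes of the members and the lists in those 6 are given beside those in all 8.

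The stretches of 250 bases before the start sites are shown for 4 members, because the results below turn on the levels of these genes: Akap5, the only member whose groups do not overlap, Ager and Emp2, which run together across lungs, and Pdpn, which runs apart from several others. A Hopx start is added as a second example with the motif described below. All were read from the RefSeq promoter table of GRCm38.p6, in which 8 of the 10 members had an entry, with 10 start sites. Each is written 5' to 3' on the strand of its gene, and capitals mark the letters ACGTG or their reverse complement CACGT.
Akap5, chr12:76324641-76324890, plus strand: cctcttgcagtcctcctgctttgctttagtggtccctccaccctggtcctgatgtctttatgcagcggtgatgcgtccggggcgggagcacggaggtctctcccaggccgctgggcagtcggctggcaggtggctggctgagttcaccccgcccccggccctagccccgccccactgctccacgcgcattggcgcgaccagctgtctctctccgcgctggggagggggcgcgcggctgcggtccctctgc
Ager, chr17:34597600-34597849, plus strand: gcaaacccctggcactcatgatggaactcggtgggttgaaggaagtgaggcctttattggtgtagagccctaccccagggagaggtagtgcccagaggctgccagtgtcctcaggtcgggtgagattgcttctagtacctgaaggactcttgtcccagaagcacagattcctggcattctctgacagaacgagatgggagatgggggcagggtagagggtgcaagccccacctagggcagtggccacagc
Emp2, chr16:10313969-10314218, minus strand: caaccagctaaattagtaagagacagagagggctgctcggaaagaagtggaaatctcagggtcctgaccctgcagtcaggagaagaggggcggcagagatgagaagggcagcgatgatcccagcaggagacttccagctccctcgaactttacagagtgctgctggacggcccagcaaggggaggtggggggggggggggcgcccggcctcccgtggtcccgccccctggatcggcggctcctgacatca
Pdpn, chr4:143299565-143299814, minus strand: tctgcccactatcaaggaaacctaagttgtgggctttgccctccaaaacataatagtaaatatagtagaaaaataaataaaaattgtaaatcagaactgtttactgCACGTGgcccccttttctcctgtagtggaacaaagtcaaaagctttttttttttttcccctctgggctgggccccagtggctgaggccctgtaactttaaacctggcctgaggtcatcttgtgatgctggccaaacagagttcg
Hopx, chr5:77095268-77095517, minus strand: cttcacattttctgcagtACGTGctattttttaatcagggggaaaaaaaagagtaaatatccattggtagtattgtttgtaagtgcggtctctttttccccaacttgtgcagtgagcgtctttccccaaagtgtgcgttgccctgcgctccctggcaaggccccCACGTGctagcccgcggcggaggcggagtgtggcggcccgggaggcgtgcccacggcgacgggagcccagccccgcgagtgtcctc
ACGTG is the core of the element that hypoxia-inducible factors bind. Counting both strands, it was present before 5 of the 10 start sites, namely those of Pdpn and Spock2, both of Hopx and 1 of the 2 of Vegfa, and before 16.6% of all 32851 start sites in the table. The Vegfa window with the match, chr17:46025164-46025413, lies inside the gene, as does the Hopx window shown. No match was in the other Vegfa window, chr17:46032378-46032627, which lies before the whole gene. In Pdpn and at 1 of the 2 matches of the Hopx window shown ACGTG lies within the palindrome CACGTG, which is read on both strands. GGAATG, a core that TEAD factors bind, was before none of the 10 and before 12.6% of all. CAAGTG, a core of the sites of Nkx2-1, was before none of the 10 and before 11.6% of all. GC content was 70.0% in the Akap5 window, 62.8% in that of Emp2, 57.6% in those of Ager and Hopx and 43.2% in that of Pdpn, against a median of 52.4% over all windows.

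The question was whether AT1 marker RNA differs between control and TO lungs. None of the 10 members was called changed by the test across all genes, which used no block. By edgeR's quasi-likelihood test no member had an adjusted p under 0.1, the largest and smallest of the 10 both being 1.0, and of all 22545 genes tested 0 (0%) were called. At an unadjusted p under 0.05 there were 530 genes (2.35%), among them 1 member, Akap5. DESeq2 called 7 genes (0.0310%) and limma-voom 0, with 367 (1.63%) and 830 (3.68%) genes at an unadjusted p under 0.05, and no member was among the called genes of either. The fitted log2 fold changes were below 0 for 8 members and above 0 for Rtkn2 and Spock2, with a median of -0.30, against 53.2% below 0, 46.8% above 0 and a median of -0.02 over all genes. In the 6 lungs of the study's figure, 5 members were below and 5 above 0 (49.3% of all genes were above), the median was 0.01, and edgeR called 0 of 21859 genes (0%). There the unadjusted p was under 0.05 for 1123 genes (5.14%), with Akap5 the only member, and DESeq2 called 44 genes (0.201%) and no member. The lean of the list below 0 was thus not seen in those 6. They leave out control 3, the highest lung for 6 members, and TO 1, the lowest for 8. They also leave TO 3 without the control that shares its specimen digits in the file names. Without TO 2, by contrast, all 10 members were below 0 and the median was -0.50. In all 8 lungs with a block by these digits, 9 members were below 0 and the median was -0.34. There 48.1% of all genes were above 0.

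**Figure D1:**
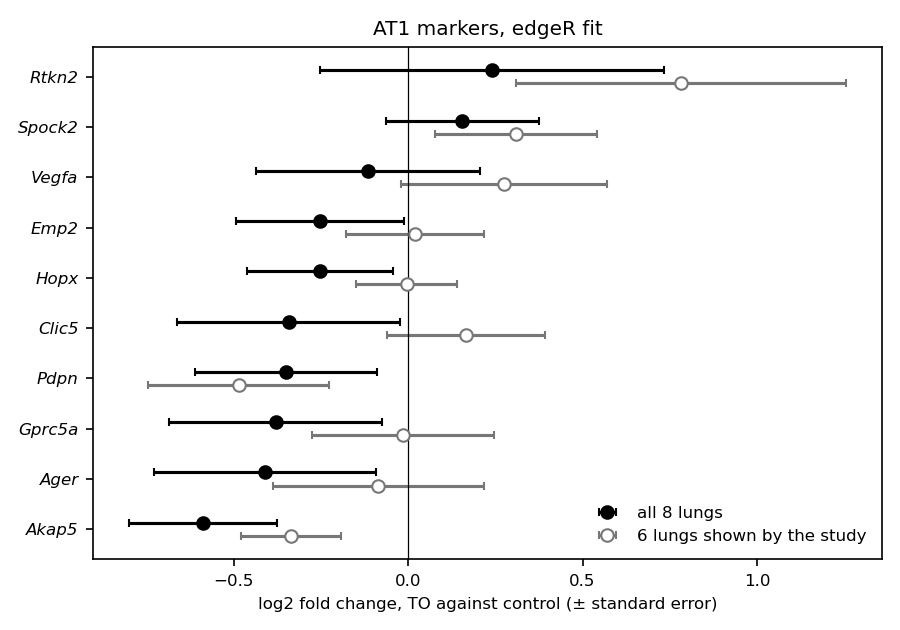
Fitted log2 fold change of each AT1 marker, TO against control, with the standard error derived from the fit's F statistic as bars. Filled points are from all 8 lungs and open points from the 6 lungs of the study's figure; the points of Akap5 and Pdpn lie below 0 and those of Rtkn2 and Spock2 above 0 in both, while those of Clic5, Emp2 and Vegfa are on opposite sides of 0.

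Among the membrane proteins, Ager (ENSMUSG00000015452.14, chr17:34597862-34600936, plus strand) encodes the receptor for advanced glycation end products, which AT1 cells carry at far higher levels than most cells. Its CPM was 591, 895, 956 and 548 in controls 1 to 4 and 299.5, 921, 636 and 365 in TO 1 to 4. TO 2 was as high as controls 2 and 3, TO 1 and TO 4 were below every control, and the groups overlapped. The means were 747 ± 208 in control and 556 ± 284 in TO (SD, n = 4), a log2 fold change of -0.41 with a standard error (SE) of 0.32. It was -0.22 without TO 1, -0.76 without TO 2 (adjusted p = 1.0 by edgeR), and -0.09 in the 6 lungs.

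Pdpn (ENSMUSG00000028583.14, chr4:143267431-143299564, minus strand) encodes podoplanin, a mucin-like glycoprotein of the AT1 surface that lymphatic endothelium and mesothelium also make. Pdpn stood at 44.6, 41.4, 25.2 and 33.4 CPM in the controls and at 27.5, 42.0, 21.5 and 21.7 CPM in the TO lungs. Here control 3, the highest library for 6 other members, was the lowest control. The mean was 36.1 ± 8.70 CPM in control and 28.2 ± 9.63 CPM in TO (SD, n = 4). The log2 fold change was -0.35 (SE 0.26), and it was -0.49 (SE 0.26) in the 6 lungs and -0.68 without TO 2. Markers of the other Pdpn-bearing cells were measured in the same libraries: 3 of 5 lymphatic genes and 4 of 8 mesothelial genes had fold changes above 0, with list medians of 0.44 and 0.00 on the log2 scale. In the 6 lungs 4 of 5 and 8 of 8 were above 0, with medians of 0.70 and 0.25.

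Emp2 (ENSMUSG00000022505.9, chr16:10281749-10313968, minus strand) encodes a tetraspan membrane protein. It was measured at 569.9, 636, 788 and 588 CPM in the controls and at 320.2, 787, 620.2 and 417 CPM in the TO lungs. The TO lungs spread more widely than the controls, with TO 2 next to the highest control and TO 1 and TO 4 below the lowest. Means of 646 ± 99.1 CPM in control and 536 ± 209 CPM in TO (SD, n = 4) gave a log2 fold change of -0.25 (SE 0.24), which was 0.02 (SE 0.20) in the 6 lungs and -0.49 without TO 2.

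Gprc5a (ENSMUSG00000046733.7, chr6:135065651-135084709, plus strand) encodes an orphan receptor that retinoic acid induces. Its levels were 427, 556, 728 and 430.3 CPM in the controls and 213, 584, 557 and 264 CPM in the TO lungs. TO 2 and TO 3 lay among the controls, and TO 1 and TO 4 below them. With means of 535 ± 142 CPM in control and 404 ± 193 CPM in TO (SD, n = 4), the log2 fold change was -0.38 (SE 0.31), and -0.01 (SE 0.26) in the 6 lungs and -0.61 without TO 2.

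**Figure D2:**
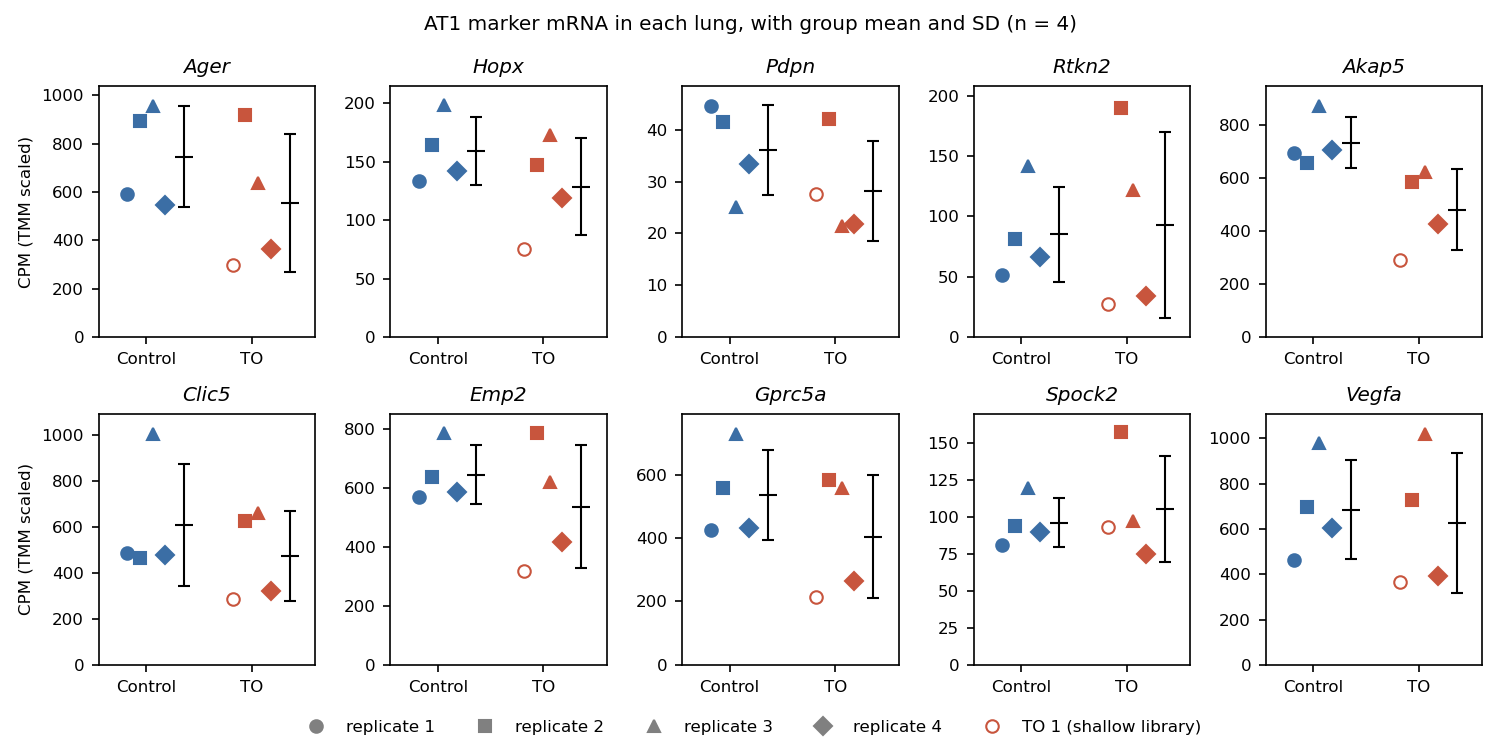
CPM (after TMM scaling) of the 10 AT1 markers in each control (blue) and TO (red) lung, with the mean and SD of each group (n = 4) as black bars. Point shapes mark the replicate numbers and the open circle is the shallow library TO 1; only for Akap5 do all TO lungs lie below all controls.

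Of the intracellular proteins, Akap5 (ENSMUSG00000021057.15, chr12:76324891-76334153, plus strand) encodes a scaffold that holds protein kinase A and calcineurin near the plasma membrane. It was the only member whose groups did not overlap. Akap5 reached 695, 657, 873 and 706 CPM in the controls and 289, 585, 624 and 427 CPM in the TO lungs, so that the highest TO lung was below the lowest control. The mean was 733 ± 95.6 CPM in control and 481 ± 154 CPM in TO (SD, n = 4). The log2 fold change was -0.59 (SE 0.21), with an unadjusted p of 0.0173 and an adjusted p of 1.0 by edgeR. It remained below 0 without TO 1 (-0.43) and in the 6 lungs (-0.34, SE 0.14, adjusted p = 0.907 by edgeR), and in both the groups again did not overlap. Over all genes tested, every TO lung was below every control for 1.30% and above for 0.710%. Among the members, 1 of 10 was lower and 0 of 10 higher without overlap. TO lungs all below the controls were found for 1.71% of genes without TO 1 and for 5.76% in the 6 lungs.

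Genes shared by all epithelial cells of the lung were read in the same libraries. The 11 pan-epithelial genes had a mean log2 CPM of 6.61 to 6.80 in the controls and 6.14 to 6.54 in the TO lungs, which also do not overlap, and all 11 had fitted fold changes below 0, with a median of -0.39 and none called. In the 6 lungs 1 of the 11 was above 0 and the median was -0.26. Controls 1 to 4 stood at a mean log2 CPM of 6.80, 6.80, 6.78 and 6.61. Of all genes tested, 2.35% had an unadjusted p under 0.05 by edgeR, as had 5 of the 11 pan-epithelial genes. The most abundant of them were Cdh1 at -0.24 (SE 0.15), Krt8 at -0.41 (SE 0.15) and Spint2 at -0.22 (SE 0.15), all on the log2 scale. These genes encode E-cadherin, a keratin and a protease inhibitor. The part of the epithelial share of the tissue in the Akap5 difference was not tested.

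Hopx (ENSMUSG00000059325.14, chr5:77086988-77115121, minus strand) encodes a small homeodomain protein that does not bind DNA. Hopx read 133, 164, 198 and 142 CPM in the controls and 75.7, 147, 173 and 119 CPM in the TO lungs, which overlapped. Hopx averaged 159 ± 29.0 CPM in control and 129 ± 41.6 CPM in TO (SD, n = 4), a log2 fold change of -0.25 (SE 0.21), and of 0.00 after rounding in the 6 lungs (SE 0.15). Its exons share 27.2% of their length with Hopxos on the opposite strand, and read pairs on both genes are left out of the column used here. Summing the columns of the 2 strands gave 1.87 times as many reads for Hopx, namely 230.2, 281, 354 and 253 CPM in the controls and 176, 244, 282 and 202 CPM in the TO lungs. Neither column can tell Hopx from Hopxos where their exons overlap, since 49.9% to 50.1% of the reads counted by strand fell on one strand, as in libraries made without strand.

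Rtkn2 (ENSMUSG00000037846.18, chr10:67979570-68059740, plus strand) was the most variable member, with 51.6, 81.5, 141 and 66.7 CPM in the controls and 27.5, 189, 121 and 34.5 CPM in the TO lungs. TO 2 was above every control and TO 1 and TO 4 were below every control. Among the 7 deep libraries the SD was 56.2% of the mean for Rtkn2, against 17.4% for Hopx, the least variable member. The means were 85.3 ± 39.4 CPM in control and 93.2 ± 77.1 CPM in TO (SD, n = 4). The log2 fold change was 0.24 (SE 0.49), 0.78 (SE 0.47) in the 6 lungs and -0.34 without TO 2. Of its exon length, 3.89% overlaps Gm16212 on the other strand.

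Clic5 (ENSMUSG00000023959.10, chr17:44188584-44280172, plus strand) encodes a chloride intracellular channel protein that binds the actin cytoskeleton at the cell cortex. Its level was 487, 467, 1004 and 477 CPM in the controls and 286, 627, 661 and 323 CPM in the TO lungs. Control 3 was above every other lung, and TO 2 and TO 3 were above the other 3 controls. The means of 609 ± 264 CPM in control and 474 ± 197 CPM in TO (SD, n = 4) gave a log2 fold change of -0.34 (SE 0.32), which was 0.02 without control 3 and 0.17 (SE 0.23) in the 6 lungs.

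Spock2 (ENSMUSG00000058297.16, chr10:60106219-60135198, plus strand) encodes a secreted proteoglycan of the extracellular matrix. Spock2 was counted at 80.7, 93.9, 119 and 90.0 CPM in the controls and at 93.0, 157, 97.3 and 74.6 CPM in the TO lungs. TO 2 was the highest and TO 4 the lowest of all lungs. The mean of the controls was 96.0 ± 16.5 CPM and that of the TO lungs 105 ± 35.7 CPM (SD, n = 4). The fitted log2 fold change was 0.16 (SE 0.22), 0.31 (SE 0.23) in the 6 lungs and -0.13 without TO 2.

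Vegfa (ENSMUSG00000023951.17, chr17:46016993-46032369, minus strand) encodes the vascular growth factor by which AT1 cells signal to the capillaries under them, and other lung cells make it too. It stood at 461, 695, 977 and 603 CPM in the controls and at 365, 727, 1019.7 and 390.3 CPM in the TO lungs. The 2 lungs with replicate number 3 were the highest of their groups. Control lungs averaged 684 ± 218 CPM and TO lungs 625 ± 310.3 CPM (SD, n = 4). The fitted log2 fold change was -0.11 (SE 0.32), and it was 0.06 without TO 1 and 0.27 (SE 0.30) in the 6 lungs. Across all 12 hypoxia response genes, which share an inducing factor with Vegfa, the fitted changes were below 0 with a median of -0.35 and none called, whereas 8 of 12 were above 0 in the 6 lungs. The 3 most abundant, Ldha, Pgk1 and P4ha1, had log2 fold changes of -0.18 (SE 0.22), -0.07 (SE 0.30) and -0.39 (SE 0.35). Control 3 held the most RNA of this list, with a mean log2 CPM of 7.11 against 5.53 to 5.98 in the other controls and 5.48 to 6.27 in the TO lungs.

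Across the members, the same lungs were high or low. Control 3 was the highest of the 8 lungs for 6 members, TO 2 for 2, and control 1 and TO 3 for 1 each. TO 1 was the lowest for 8 members. Its counts for single members ran from 8 for Pdpn and Rtkn2 to 106 for Vegfa, and the 95% Clopper-Pearson interval of its share of reads, which covers counting error only, lay below all other lungs for Hopx, Akap5 and Emp2. With TO 1 left out, TO 4 was the lowest for 9 members. The TO group therefore held lungs with AT1 marker levels like those of the controls (TO 2 and TO 3) and lungs with lower levels (TO 1 and TO 4). The mean log2 CPM over the 10 members was 7.89, 8.15, 8.50 and 7.94 in controls 1 to 4 and 7.15, 8.41, 8.18 and 7.36 in TO 1 to 4, which overlapped. Controls 1 and 4, the lowest controls on this mean, share their specimen digits with TO 1 and TO 4. The low and high lungs thus divided by these digits in both groups.

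**Figure D3:**
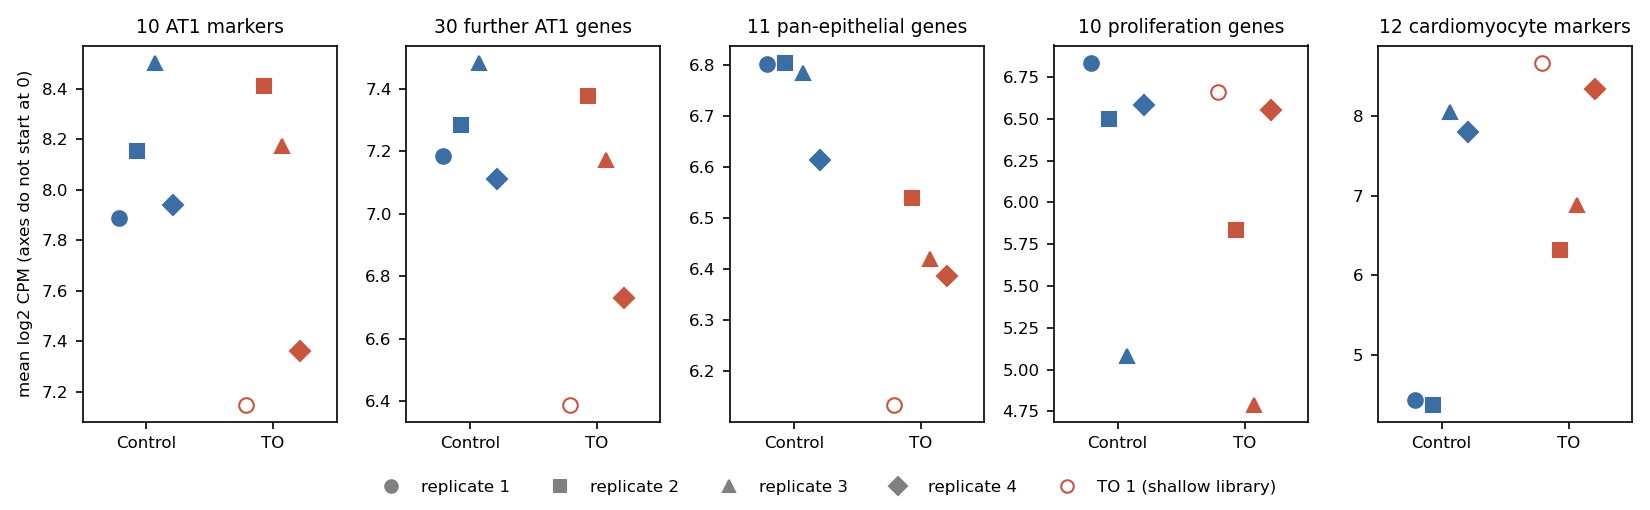
Mean log2 CPM of 5 gene lists in each control (blue) and TO (red) lung, on separate axes that do not start at 0. Point shapes mark replicate numbers and the open circle is TO 1; the AT1 markers and the further AT1 genes overlap between groups, the pan-epithelial genes do not, and proliferation and cardiomyocyte genes vary within both groups.

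The AT1 markers ran together across lungs. Over the 7 deep libraries, Pearson's r of log2 CPM was above 0 for 42 of 45 pairs of members, with a median of 0.77, and the 3 negative pairs were those of Pdpn with Hopx, Clic5 and Vegfa. These correlations are descriptions of 7 points that share dissection, depth and tissue makeup. Among 10765 genes with a mean of at least 10 CPM, the genes most like Ager were Fbxo28 (r = 0.986), Pdgfa (0.982), Rhof (0.979), Wfdc1 (0.971) and Fam174b (0.966). Pdgfa encodes a platelet-derived growth factor chain. Emp2 was in place 16 (0.943) and Gprc5a in place 20 (0.940), while Akap5 (0.666) and Pdpn (0.417) were the members least like Ager. Over all these genes the median r with Ager was 0.02 and the 95th percentile 0.77.

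Set per kilobase of exon, where genes can be compared, Ager RNA was the most abundant member at 328 ± 105 CPM per kb (SD, n = 7 deep libraries). Gprc5a followed at 243 ± 71.0, Vegfa at 162 ± 55.7, Hopx at 101 ± 17.6, Akap5 at 95.6 ± 19.8, Emp2 at 72.8 ± 14.98 and Clic5 at 65.8 ± 24.9 CPM per kb. Spock2 (18.4 ± 5.09), Pdpn (18.1 ± 5.53) and Rtkn2 (17.7 ± 9.94) were the lowest on this scale and did not differ beyond their spread. The Hopx value rests on the column that leaves out reads shared with Hopxos, although all of its exon length is counted. From the sum of both strand columns, an alternative added after seeing the data, Hopx was at 174 ± 32.1 CPM per kb and Vegfa at 149 ± 51.3, with Hopx the higher in 6 of 7 libraries. In the column used, and in all 7 libraries, Ager was above Gprc5a, Gprc5a above Vegfa, Vegfa above Hopx and Clic5 above Spock2. Hopx was above Akap5 in 5 of the 7, Akap5 above Emp2 in 6 and Emp2 above Clic5 in 5, so the order of these neighbours was not fixed.

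A wider set of AT1 genes was examined in the same fit. Of 30 further AT1 genes, 4 had fold changes above and 26 below 0, with a median of -0.24 and none called, and in the 6 lungs 17 were above 0 with a median of 0.04. The most abundant were Cav1, which encodes the coat protein of caveolae, at a log2 fold change of -0.21 (SE 0.18), Ahnak at -0.16 (SE 0.23) and Lmo7 at -0.15 (SE 0.17). The TO lungs were all below the controls for 3 of the 30, Sema3e (-0.57, SE 0.16), Lama3 (-0.48, SE 0.15) and Tspan15 (-0.47, SE 0.19), which are named here after their values were seen. Such an order was found for 1.30% of all genes tested. Lama3 encodes a chain of laminin-332, which anchors epithelial cells to their basement membrane, and Sema3e a secreted guidance protein that acts on vessels. Of the 46 genes in the study's AT1 list, which holds 7 of the members, 6 were above and 40 below 0 with a median of -0.26, and in the 6 lungs 24 were above 0 with a median of 0.02. Over all genes tested, 53.2% were below 0 in the fit of all lungs, and 49.3% were above 0 in the 6.

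Regulators of AT1 fate were also below 0 in the fit of all lungs, as were 53.2% of all genes tested. All 11 had fold changes between -0.32 and -0.04, with none called, and in the 6 lungs 3 of them were above 0. The list includes the Lats kinases, which inactivate the Yap protein, so a shared sign gives no direction of AT1 fate. Yap1, the gene of that protein and named here after its values were seen, was at -0.05 (SE 0.13). Nkx2-1, the homeodomain factor of the lung epithelium, had 600.3 ± 99.1 CPM in control and 489 ± 133 CPM in TO (SD, n = 4), a log2 fold change of -0.28 (SE 0.19). Wwtr1, which encodes the Yap partner Taz, was at -0.24 (SE 0.21) and Tead1, which encodes a DNA-binding partner of both, at -0.32 (SE 0.18). Klf5, a zinc finger factor, was the only regulator whose TO lungs were all below the controls, at -0.30 (SE 0.14), and it is named after its values were seen. Over all genes tested such an order was found for 1.30%. Of 6 genes of distal tip progenitors all were below 0, among them Id2 at -0.11 (SE 0.30), Clu at -0.48 (SE 0.21) and Bmp4 at -0.10 (SE 0.24), and none was called. All 6 were also below 0 in the 6 lungs, with a median of -0.33 in place of -0.12.

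AT2 markers had the other sign. Of 15 AT2 markers 13 had fold changes above 0 and 2 below, with a median of 0.27 and none called, and in the 6 lungs 14 were above 0 with a median of 0.41. Sftpc, the surfactant protein that defines AT2 cells, was at 0.02 (SE 0.30), Slc34a2, a phosphate transporter, at 0.27 (SE 0.36) and Sftpb, another surfactant protein, at 0.19 (SE 0.34). Scd1, a fatty acid desaturase named here after its values were seen, had 117, 109, 103 and 89.9 CPM in the controls and 145, 720, 125 and 137 CPM in the TO lungs, which do not overlap. TO lungs all above the controls were found for 0.710% of all genes tested.

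Within each lung, the level of the AT1 markers was then set against that of the AT2 markers, a comparison made after the data had been seen. The mean log2 CPM of the 10 members minus that of the 15 AT2 markers was -0.43, -0.58, -0.16 and -0.40 in controls 1 to 4. It was -0.70, -1.02, -0.84 and -0.85 in TO 1 to 4, so every TO lung had less AT1 relative to AT2 marker RNA than every control. The mean was -0.39 ± 0.18 in control and -0.86 ± 0.13 in TO (SD, n = 4), a difference of -0.46 between groups on the log2 scale. The difference was -0.51 without TO 1 and -0.44 in the 6 lungs. With the further AT1 genes in place of the members it was -0.46, and without Lyz2, which macrophages also make, it was -0.45. Neither showed overlap, but with the further AT1 genes the shallow TO 1 (-1.458) was barely below control 2 (-1.453). Scd1, itself higher in every TO lung than in every control and by far the highest in TO 2, stayed in the AT2 list throughout. Whether the groups stay apart without Scd1 was not tested. For Ager and Sftpc alone the log2 difference ran from -3.72 to -2.97 in the controls and from -3.95 to -3.80 in the TO lungs. This is a description and was given no test, since the genes were chosen with results of these data known.

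Against the pan-epithelial genes neither side separated. The AT1 markers minus the pan-epithelial genes ran from 1.09 to 1.72 in the controls and from 0.97 to 1.87 in the TO lungs. The AT2 markers minus the pan-epithelial genes ran from 1.52 to 1.93 in the controls and from 1.71 to 2.90 in the TO lungs.

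**Figure D4:**
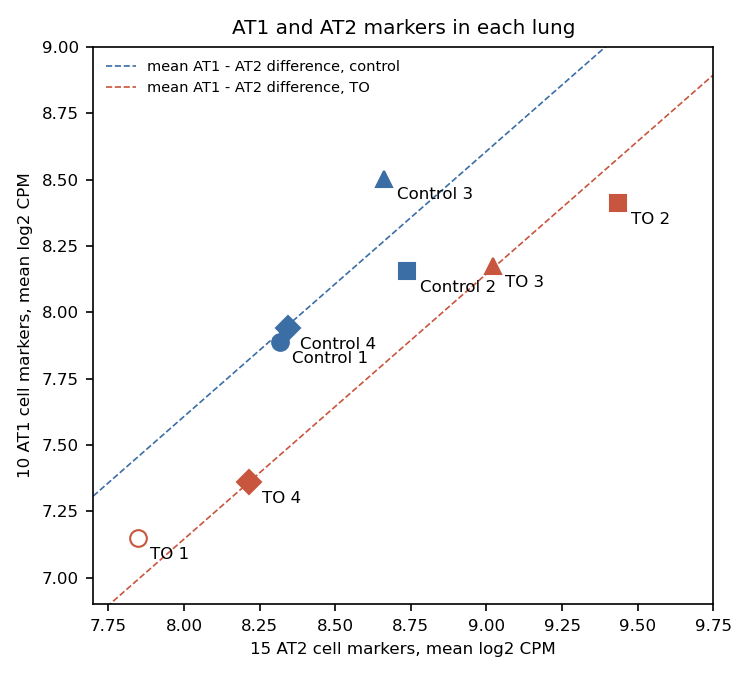
Mean log2 CPM of the 10 AT1 markers (vertical) against that of the 15 AT2 markers (horizontal) in each control (blue) and TO (red) lung, with the open circle for TO 1. The dashed lines mark the mean difference between both lists in each group, -0.39 in control and -0.86 in TO; each axis alone overlaps between groups, while every TO lung lies below and to the right of the control line.

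The partners of 2 members were examined next. For Ager, 8 of 9 genes for ligands of its protein or for its binding partner Diaph1 were tested, and 5 were above and 3 below 0, with none called by edgeR. Hmgb1, S100a11 and Diaph1, the most abundant, had log2 fold changes of -0.11 (SE 0.20), -0.26 (SE 0.19) and 0.03 (SE 0.14). S100a8 and S100a9 encode the calprotectin subunits of neutrophils, and DESeq2 called both at a threshold of 0.1. S100a8 had 9.33, 8.54, 5.31 and 4.44 CPM in the controls and 13.8, 10.999, 26.1 and 41.6 CPM in the TO lungs, which do not overlap. Over all genes tested, TO lungs were all above the controls for 0.710%. The log2 fold change of S100a8 was 1.84 (SE 0.40), with an adjusted p of 1.0 by edgeR, 0.0403 by DESeq2 in all lungs and 0.00818 by DESeq2 in the 6. S100a9 was at 1.73 (SE 0.43), with an adjusted p of 1.0 by edgeR, 0.0571 by DESeq2 in all lungs and 0.519 by DESeq2 in the 6.

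For Vegfa, 4 of 5 receptors and co-receptors were below 0, with Kdr, the main receptor on endothelium, at -0.24 (SE 0.20), Nrp1 at 0.00 (SE 0.16) and Nrp2 at -0.21 (SE 0.18). In the 6 lungs all 5 were above 0, with a median of 0.04. Of the other VEGF ligands, 2 were above and 2 below 0, with Vegfd at -0.37 (SE 0.26), Vegfb at 0.03 (SE 0.24) and Vegfc at 0.19 (SE 0.22), and the same counts were found in the 6 lungs. Of 8 genes of the Car4-high capillary cells, which lie against AT1 cells, 7 were tested, and 2 were above and 5 below 0, against 5 above in the 6 lungs with a median of 0.18. The most abundant of these were Tbx2 at -0.20 (SE 0.19), Ednrb, an endothelin receptor, at -0.48 (SE 0.22) and Kitl at -0.01 (SE 0.25). Of 9 general endothelial markers, 8 were below 0 with a median of -0.22, with Cdh5 at -0.28 (SE 0.18), Pecam1 at -0.24 (SE 0.18) and Tie1 at -0.14 (SE 0.17), while 3 of 9 were above 0 in the 6 lungs with a median of -0.10. None of the genes of these 4 lists was called.

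Several lists of other cells and states differed among lungs within a group. Proliferation genes had a mean log2 CPM of 5.08 in control 3 and 4.79 in TO 3, against 6.50 to 6.84 in the other controls and 5.83 to 6.66 in the other TO lungs. Interferon-stimulated genes were highest in the same pair, at 4.59 and 5.57, against 1.76 to 2.35 in the other controls and 2.03 to 3.56 in the other TO lungs. All 10 proliferation genes were below 0, with a median of -0.36, and all 9 interferon genes above 0, with a median of 0.82. In the 6 lungs, which leave out control 3 but not TO 3, the signs were the same and the medians were -0.77 and 2.18. Ifit3, an interferon-induced antiviral gene, was at 1.82 (SE 1.20) in all lungs and at 4.83 (SE 1.08) in the 6, where DESeq2 called it with an adjusted p of 0.0454. Among the most abundant genes of these lists were Mki67 (-0.39, SE 0.43), Top2a (-0.06, SE 0.48) and Cenpf (-0.38, SE 0.45), and Oasl2 (0.54, SE 0.62) and Ifi44 (0.73, SE 0.78). All 12 cardiomyocyte markers were above 0 with a median of 0.89, and of 1.19 in the 6 lungs, led in abundance by Myh6 (0.51, SE 0.59), Actc1 (0.83, SE 0.68) and Myh7 (1.15, SE 0.90). The 8 skeletal muscle markers had a median of 2.92 and the 5 tested of 7 thymocyte markers one of 5.31, which without TO 1 came to 1.31 and 2.14 and in the 6 lungs to 1.25 and 1.86 (3 thymocyte markers tested). Of 6 club and ciliated cell markers 5 were above 0, among them Scgb3a2 at 0.44 (SE 0.28), Scgb1a1 at 0.97 (SE 0.61) and Cyp2f2 at 0.19 (SE 0.23), with 5 above 0 in the 6 lungs too. edgeR called none of these genes, and their part in the member values was not tested.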

How the data were processed

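The authors sequenced NexteraXT libraries of 4 control and 4 TO lungs as read pairs and aligned them to GRCm38 with STAR. They deposited unnormalized, unfiltered counts of the read pairs on each gene, in 1 column for both strands, which was used here, and 1 for each strand. The version of STAR and the annotation are not given in the sources used here. Of 55385 gene IDs, 54487 were identical to those of GENCODE M21, from which symbols and positions were taken. Rows that name no gene held 23.1% to 27.1% of read pairs and were left out. Depth was 270078 counts on genes in TO 1 and 22822261 to 35002061 in the others, and intervals cover counting error only.

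Genes with at least 5 reads in at least 3 libraries were tested in all 8 libraries with edgeR 4.0.16 (TMM scaling, quasi-likelihood test, Benjamini-Hochberg adjustment over all genes, threshold 0.1) in R 4.3.3. Figures were made in Python 3.11.15. List levels are means of log2 CPM with a prior count of 2. The standard errors given were derived from the edgeR fit, as the absolute log2 fold change over the square root of the quasi-likelihood F statistic. Alternatives were DESeq2 1.42.0 (also its size factors), limma-voom (limma 3.58.1), other filters, other strand columns, replicate blocks, the 6 libraries of the study's figure, and each library left out in turn. The fit was tested on simulated data. The labels do not say which lungs shared a litter, so p-values measure the spread between these samples. Without a block, this spread takes in that between lungs with different specimen digits.

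The members and lists were chosen with earlier results of these data known. Named are all 10 members, the 3 most abundant genes of each other list, any listed gene called by edgeR or DESeq2 (in all 8 or in the 6 libraries), and the 5 genes most like Ager, and genes named after their values were seen are given as such. The lymphatic, mesothelial, skeletal muscle and thymocyte lists are exceptions, and their most abundant genes are not named. In another list, a gene that should be named accordingly has also been omitted. The AT1 list of the study was taken from its supplement.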

Additional observations from a re-analysis of the deposited data

Results flagged for a closer look

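The Clic5 level in control 3, 1004 CPM, stood apart from the other 3 controls, which had 467 to 487 CPM. The gap to the nearest control, as a share of the range of the group, was above Dixon's critical value for 4 samples. Of 20 groups examined (10 members in control and in TO), this was the only 1 so marked, and chance alone marks about 1 in 20. Without control 3 the log2 fold change of Clic5 was 0.02 in place of -0.34.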

How the results depend on the processing

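No member was called under any of the alternatives, and Ager, Akap5 and Pdpn had fold changes below 0 under all 20. The number of genes called, 0 by edgeR, was 7 with DESeq2, 44 with DESeq2 on the 6 libraries, 3 with a replicate block and 3 with the replicate block without replicate 1, and it was 0 with each library left out. The cause was not tested.

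Log2 fold changes of members crossed 0 as follows. With the 6 libraries they were 0.17 for Clic5, 0.020 for Emp2 and 0.27 for Vegfa. With DESeq2 on the 6 libraries they were 0.0091 for Hopx, 0.18 for Clic5, 0.034 for Emp2, 0.0011 for Gprc5a and 0.29 for Vegfa. Leaving out each library in turn gave 0.024 for Clic5 without control 3, and for Vegfa 0.12 without control 3, 0.058 without TO 1 and 0.061 without TO 4. Without TO 2, Rtkn2 came to -0.34 and Spock2 to -0.13. Over these fits Clic5 ranged from -0.54 to 0.024, Vegfa from -0.45 to 0.12, Rtkn2 from -0.34 to 0.63, Spock2 from -0.13 to 0.31 and the median of the members from -0.50 (without TO 2) to -0.12 (without control 3). The log2 fold change of Akap5 ranged from -0.73 to -0.43, and without TO 4 no member had an unadjusted p under 0.05. Without TO 2 all 10 members were below 0, and Ager (-0.76), Pdpn (-0.68), Akap5 (-0.69) and Emp2 (-0.49) had an unadjusted p under 0.05 by edgeR, as did 2.92% of all genes.

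Lungs with the same replicate number deviated together with correlations of 0.0695, 0.274, 0.275 and 0.153 for numbers 1 to 4 over 14279 genes. Not every one was over 0.1, so the numbers were not taken as pairs. The value below it was that of number 1, which holds the shallow library TO 1. Control 1 correlated best with TO 4 (0.209). Controls 1 and 4 and TO 1 and TO 4 share their specimen digits in the file names, and what the digits mark is not stated. Control 2 shares its digits with TO 2, and control 3 with TO 3. Every control and TO lung with the same digits correlated above 0 (0.0695 to 0.275). Every control and TO lung with different digits correlated below 0 (-0.267 to -0.0187). The deviations were taken from the group means and sum to 0 within each group, so correlations of both signs were bound to occur. With the replicate block the median of the members was -0.32, Rtkn2 came to -0.094, and 4 members had an unadjusted p under 0.05, as did 4.40% of all genes. With a block by these digits Rtkn2 came to -0.078 and the median of the members to -0.34, and 4 members and 5.11% of genes had an unadjusted p under 0.05. The 4 were Ager (-0.51, SE 0.14), Akap5 (-0.62, SE 0.15), Gprc5a (-0.47, SE 0.15) and Clic5 (-0.36, SE 0.17). Their standard errors without a block were 0.32, 0.21, 0.31 and 0.32. The lowest adjusted p of any member with this block was 0.712 (Akap5), by edgeR.

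In TO 1 a read was worth 3.44 CPM after TMM scaling, and values of the low members Pdpn and Rtkn2 there rest on 8 reads each.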
